A study of Mus musculus with 6 samples.

Results

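The 5 genes described here, Tbx5, Tbx20, Tbx3, Tbx2 and Tbx18, encode T-box transcription factors of the heart and were taken by name from the deposited gene table. They are 5 of 28660 rows other than spike-ins. The RNA came from nuclei of the mouse cardiomyocyte line HL-1, which derives from an atrial tumour and was grown in Claycomb medium with serum, L-glutamine and norepinephrine. Nuclei were separated into a chromatin pellet extract (3 libraries) and a soluble nuclear extract (3 libraries), and ERCC spike-in RNAs, a set of synthetic standards, went into each fraction ahead of RNA extraction. Both groups are the same untreated line, so the comparison is between nuclear fractions and not between states of the cells, and it asks how far the RNA of each gene stays with chromatin. The 3 libraries of a fraction stand as a single FPKM value (fragments scaled to transcript length and library size) per gene. No spread between replicates and no p-value can therefore be given for any value here, and sequencing depth is unknown.

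T-box factors bind DNA through a shared domain, the T-box, that reads a core close to AGGTGT. In the heart Tbx5 and Tbx20 activate chamber and conduction genes, often together with Gata4 and Nkx2-5, and Tbx20 also represses. Tbx2 and Tbx3 are repressors that keep the chamber programme off in the atrioventricular canal and the conduction system. Tbx18 marks the sinus venosus, the head of the sinoatrial node and the epicardium. For RNA, a transcript that is still being made or is unspliced tends to remain in the pellet, while a finished message leaves for the soluble extract.

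Tbx20 was by far the most abundant of the 5 genes in both fractions, Tbx5 came next, Tbx3 and Tbx18 lay lower still, and Tbx2 was the lowest. Tbx20 had 51.3 FPKM in the pellet and 99.4 FPKM in the soluble extract. Tbx5 had 9.54 FPKM in the pellet and 17.8 FPKM in the soluble extract. Summed over the 5 genes, Tbx20 held 77.0% of the pellet FPKM and 77.3% of the soluble FPKM, and Tbx5 held 14.3% and 13.8%. The level of Tbx20 exceeded that of Tbx5 by 5.37 times in the pellet and 5.59 times in the soluble extract. Among the 11397 protein-coding genes with a mean of both values of at least 0.5 FPKM, Tbx20 stood above 98.1% in the pellet and above 93.6% in the soluble extract, and Tbx5 above 72.7% and 59.6%.

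Tbx18 and Tbx3 changed places between the fractions. Tbx18 had 3.66 FPKM in the pellet and 5.19 FPKM in the soluble extract. Tbx3 had 1.85 FPKM in the pellet and 5.85 FPKM in the soluble extract. Tbx18 was thus 1.98 times as high as Tbx3 in the pellet, whereas in the soluble extract it stood at 0.887 times the Tbx3 level. With a pooled value per fraction, whether these neighbours in the order differ beyond the spread between cultures cannot be given. Tbx2 had 0.301 FPKM in the pellet and 0.321 FPKM in the soluble extract, which is under the 0.5 FPKM mean used for counting, so 4 of the 5 genes entered the counts below. In bulk RNA, a level carried by few cells and a low level in every cell cannot be told apart.

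**Figure D1:**
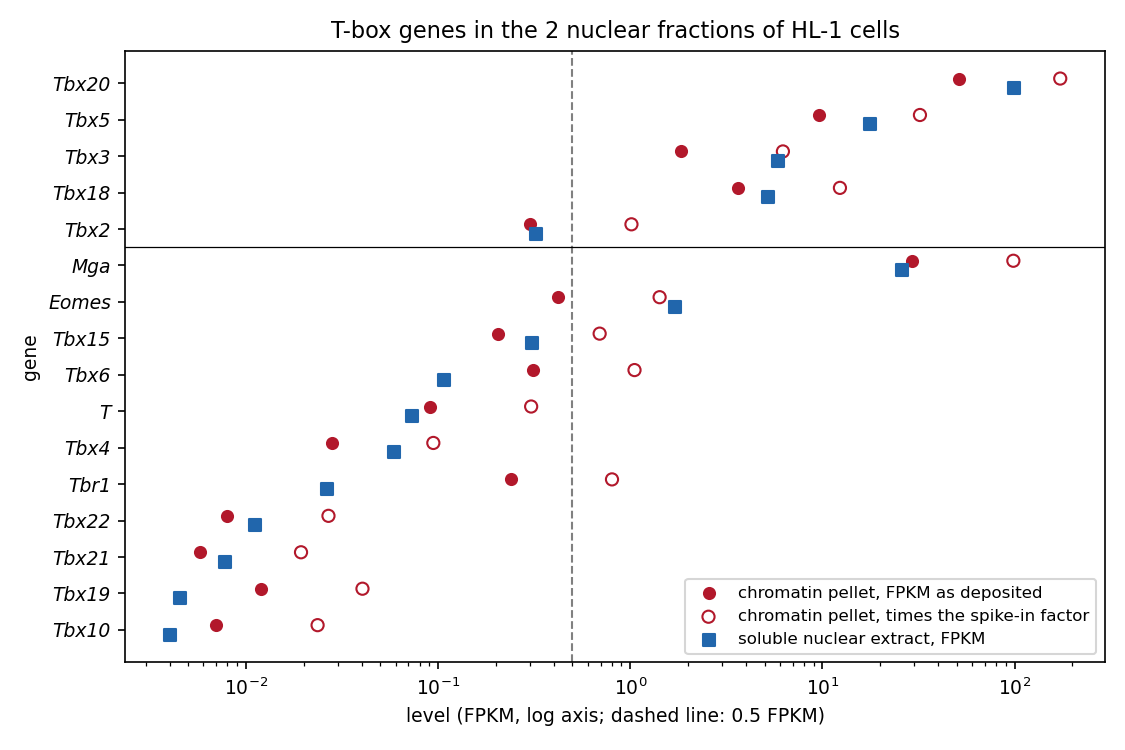
Levels of the 5 T-box genes (above the horizontal line) and of 11 other T-box genes (below it) on a log axis in FPKM: filled red circles are the chromatin pellet as deposited, open red circles the pellet times the spike-in factor of 3.37, and blue squares the soluble extract, 1 pooled value each. Tbx20 sits at 51.3 FPKM in the pellet and 99.4 FPKM in the soluble extract, and the dashed line marks 0.5 FPKM.

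Promoter windows of RefSeq (build GRCm38.p6, the same assembly as mm10; 250 bases before and 50 after a gene start) are shown for Tbx20 and Tbx18, the most abundant gene and the one furthest towards the pellet among the 4 counted, and for Nppa, the atrial natriuretic peptide gene, because it is a classical T-box target and is measured below. Of the 5 genes, 2 matched the table by symbol; Tbx5, Tbx3 and Tbx2 did not. Capitals mark 3 motifs searched on both strands: the T-box core AGGTGT, the GATA site AGATAA and the Nkx2-5 site AAGTGG, none of which overlapped another here.
Tbx20, chr9:24774254-24774553, minus strand: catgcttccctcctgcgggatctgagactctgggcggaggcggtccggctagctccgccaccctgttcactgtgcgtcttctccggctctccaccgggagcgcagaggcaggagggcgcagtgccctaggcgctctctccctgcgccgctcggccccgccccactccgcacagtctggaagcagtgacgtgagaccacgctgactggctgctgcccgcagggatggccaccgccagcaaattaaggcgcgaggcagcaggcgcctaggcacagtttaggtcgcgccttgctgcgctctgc
Tbx18, chr9:87731211-87731510, minus strand: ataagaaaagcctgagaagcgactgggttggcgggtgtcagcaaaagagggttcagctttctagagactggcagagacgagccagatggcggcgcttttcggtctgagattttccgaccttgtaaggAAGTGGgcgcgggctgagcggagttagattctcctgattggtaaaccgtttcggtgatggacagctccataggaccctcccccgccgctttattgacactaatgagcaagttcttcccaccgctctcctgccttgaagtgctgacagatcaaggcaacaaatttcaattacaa
Nppa, chr4:148000472-148000771, plus strand: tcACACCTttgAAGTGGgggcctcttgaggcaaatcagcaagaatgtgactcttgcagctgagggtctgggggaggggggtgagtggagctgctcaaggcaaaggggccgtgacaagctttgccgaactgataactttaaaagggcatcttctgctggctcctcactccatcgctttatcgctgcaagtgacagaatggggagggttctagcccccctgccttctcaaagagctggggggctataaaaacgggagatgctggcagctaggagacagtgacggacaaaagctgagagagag
The Nppa window held the T-box core on the minus strand from 248 bases before the gene start and the Nkx2-5 site from 239 bases before it. The Tbx20 window held none of the 3 motifs, and the Tbx18 window held the Nkx2-5 site alone, 123 bases before the start. Of all 32851 windows, 13.7% held the T-box core, 11.2% the GATA site and 16.9% the Nkx2-5 site. A match describes these letters only. The windows differed in composition, with 68.3% G and C for Tbx20 and 51.7% for Tbx18.

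The balance between the fractions was put on the scale that the authors used, with pellet FPKM multiplied by a spike-in factor of 3.37. On this scale, a log2 fold above 0 stands for a higher pellet level per unit of spike-in. With this factor Tbx18, Tbx5 and Tbx20 were on the pellet side. Tbx3 lay within the residuals of spike-ins of at least 0.5 FPKM (-0.28 to 0.23), so its side is not settled. The medians of protein-coding genes and of all rows counted were on the pellet side too. Without the factor all 4 genes and both medians were on the soluble side. Of the 4 only Tbx18 was at least 2-fold higher in the pellet. Tbx18 had a log2 fold of 1.25 (2.38-fold), Tbx5 0.86 (1.81-fold), Tbx20 0.80 (1.74-fold) and Tbx3 0.09 (1.06-fold). That is 1 of 4 genes at least 2-fold higher and 0 of 4 at least 2-fold lower, beside 24.0% higher and 10.6% lower among all protein-coding genes counted, or 31.9% and 10.5% among all 13917 rows counted. With 4 genes, this share is near the background. The median of the 4 was 0.83, against 0.26 for protein-coding genes (interquartile range -0.43 to 0.97) and 0.41 for all rows counted.

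As shares of the total nuclear signal on this scale (scaled pellet plus soluble), 70.4% of Tbx18, 64.4% of Tbx5, 63.5% of Tbx20 and 51.6% of Tbx3 RNA was in the pellet. Tbx2 had the highest share, 75.9%, with a log2 fold of 1.66, yet at its level the fold is less certain. The 10 spike-ins nearest to Tbx2 in level had log2 residuals from -0.43 to 0.23, with an SD of 0.20. Near Tbx5 the SD of 10 spike-ins was 0.09, and near Tbx20 it was 0.10. Around Tbx18 and Tbx3 it was 0.11 and 0.10.

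**Figure D2:**
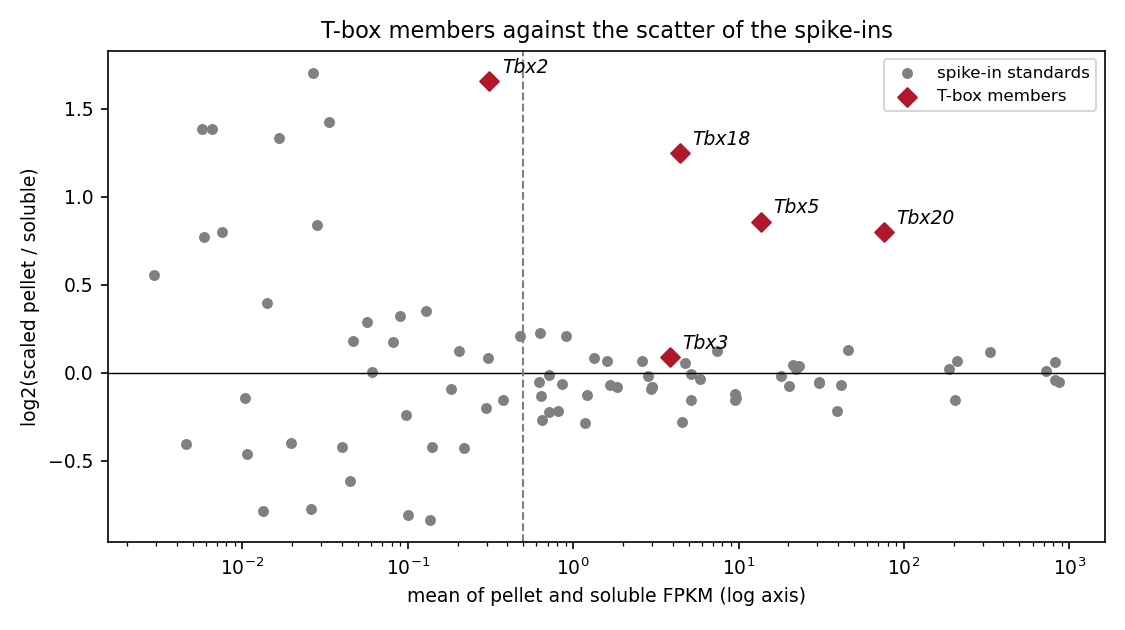
The log2 ratio of scaled pellet to soluble signal (y axis) against the mean of pellet and soluble FPKM on a log axis for the 82 spike-in standards (grey) and the 5 T-box genes (red diamonds). Tbx18, Tbx5 and Tbx20 lie above all spike-ins of at least 0.5 FPKM (dashed line), Tbx3 at 0.09 lies among them, and Tbx2 at 1.66 lies left of the line where the spike-ins scatter more.

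The sign of these folds depends on the factor. Without it, on the FPKM scale, every log2 value was lower by 1.75: Tbx18 was at -0.51, Tbx5 at -0.90, Tbx20 at -0.95, Tbx3 at -1.66 and Tbx2 at -0.10. On that scale 0 of 4 genes were at least 2-fold higher and 1 of 4, Tbx3, at least 2-fold lower, beside 2.25% and 68.2% of protein-coding genes, or 9.66% and 61.2% of all rows counted. The median of all rows counted also shifted, to -1.34, and that of protein-coding genes to -1.49, so the T-box median of -0.93 kept its distance from both. Any log2 fold between 0 and 1.75 given below likewise changes sign without the factor.

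The differences between the genes do not depend on the factor, and here Tbx3 stood apart. Its log2 fold was 1.16 below that of Tbx18, 0.77 below that of Tbx5 and 0.71 below that of Tbx20. These 3 of the 6 pairs differed by more than 0.51, the widest gap between any spike-ins of at least 0.5 FPKM (n = 47, SD 0.12). The other 3 pairs lay within it: Tbx18 was 0.39 above Tbx5 and 0.45 above Tbx20, and Tbx5 and Tbx20 differed by 0.06. The spike-in scatter covers RNA extraction, library preparation and sequencing of pooled values, not the fractionation or the cells. In the order of all protein-coding genes counted, the log2 fold of Tbx18 stood above 82.6%, that of Tbx5 above 71.5%, that of Tbx20 above 69.6% and that of Tbx3 above 43.2%.

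**Figure D3:**
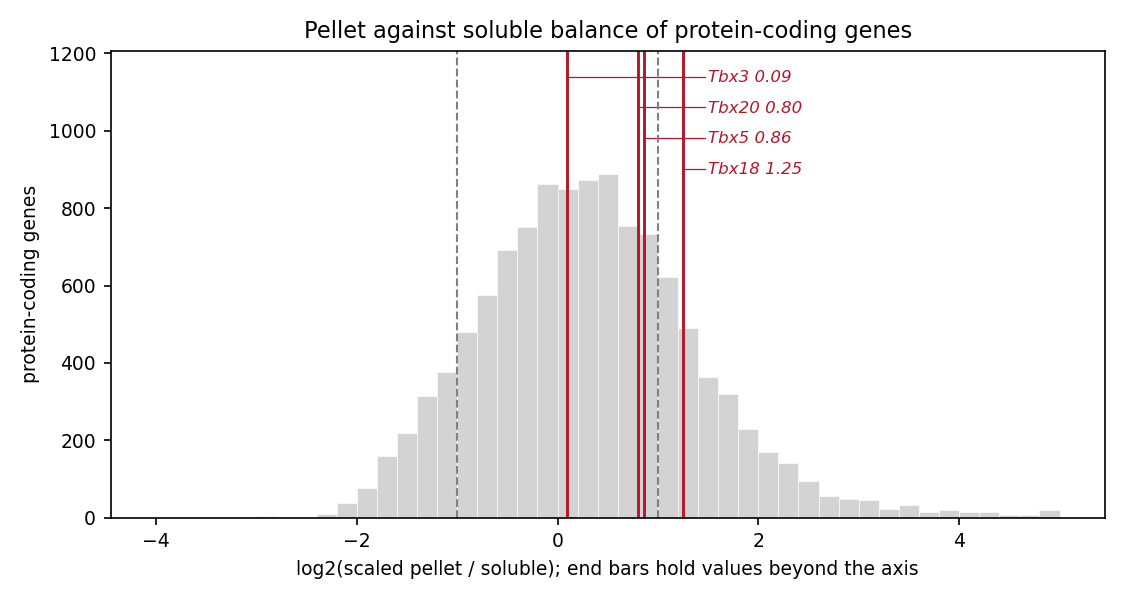
Distribution of the log2 ratio of scaled pellet to soluble signal over 11397 protein-coding genes with a mean of at least 0.5 FPKM (grey bars, number of genes), with dashed lines at 2-fold and red lines at the 4 T-box genes counted. Tbx3 at 0.09 lies near the middle of the distribution and Tbx18 at 1.25 past the upper dashed line; without the factor all values shift down by 1.75.

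Gene length moved with the balance over protein-coding genes. Over 10726 protein-coding genes with a RefSeq span, the Spearman correlation across genes of log2 fold with span was 0.44, and with mean FPKM it was -0.32. Genes share these libraries, so this is a description. Tbx3 (span 14191 bp) belonged to the length class from 10706 to 24344 bp, whose median log2 fold was 0.08, against its own 0.09. Tbx5 (88707 bp) belonged to the longest of the 4 equal classes, with a median of 0.83 beside its 0.86. Tbx20 (53492 bp) and Tbx18 (28461 bp) shared the class from 24345 to 57246 bp, with a median of 0.39 and an interquartile range of -0.14 to 0.999. Tbx20 at 0.80 lay inside that range and Tbx18 at 1.25 above it. Tbx2 is short at 9334 bp, and the shortest class had a median of -0.42. Whether length has a part in the differences between the 5 genes was not tested.

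The spans of the table differ from RefSeq for some of the 5 genes, which bears on how firmly the values can be read. Tbx20 (ENSMUSG00000031965.10) covers 24720812 to 24774303 on chromosome 9 in both, and no other row shares its coordinates. Tbx5 (ENSMUSG00000018263.8) covers 119834663 to 119885218 on chromosome 5 in the table, but RefSeq starts it at 119796514. With its table span of 50556 bp, Tbx5 would belong to the class with a median of 0.39. Tbx3 (ENSMUSG00000018604.14, chromosome 5, 119611263 to 119684724) spans 73462 bp in the table and shares these coordinates with 3 other rows, among them an entry for the antisense RNA Tbx3os1. With that table span Tbx3 would belong to the longest class, whose median was 0.83 and lower quartile 0.28, so its match with its class holds for the RefSeq span only. Tbx18 (ENSMUSG00000032419.8, chromosome 9, 87702800 to 87732090) shares its coordinates with 1 row. Tbx2 (ENSMUSG00000000093.6, chromosome 11, 85832551 to 85841948) stands alone. The sources used here do not say how fragments were divided between overlapping rows or whether strand entered the counting. The rows that share the Tbx3 locus had at most 0.0450 FPKM in the pellet and 0.124 FPKM in the soluble extract, and the row in the Tbx18 locus had 0.0521 and 0.151 FPKM.

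Next to Tbx20 the noncoding row with measurable signal lay further towards the pellet than the gene, and next to Tbx5 both such rows lay further towards the soluble extract. Within 100 kb of the 5 genes the table held 19 other rows, and 6 of them had a mean of at least 0.5 FPKM. RP24-174I18.1, an unclassified locus that lies 820 bp beyond the 3′ end of Tbx20 (chromosome 9, 24718138 to 24719991), had 5.82 FPKM in the pellet and 1.48 FPKM in the soluble extract. Its log2 fold of 3.73 stayed on the pellet side on the FPKM scale, at 1.98. Of the 212 counted rows of this type (TEC, awaiting experimental evidence), 89.2% passed 2-fold towards the pellet, with a median of 3.83 and an interquartile range of 2.97 to 4.42, which holds this locus. Whether it is a transcript of its own or an extension of Tbx20 was not tested. On the promoter side of Tbx20, the lincRNA RP24-174I18.3 lay 2163 bp away and had 0.416 FPKM in the pellet and 0.399 FPKM in the soluble extract, under the limit.

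The 2 lincRNAs next to Tbx5 with a mean of at least 0.5 FPKM were more soluble than Tbx5 itself. RP24-150D8.2 ends 2742 bp before the Tbx5 locus of the table (chromosome 5, 119828448 to 119831920) and had 8.59 FPKM in the pellet and 23.4 FPKM in the soluble extract, a log2 fold of 0.31. RP24-150D8.1 lies 26.8 kb away and had 1.001 FPKM in the pellet and 5.95 FPKM in the soluble extract, a log2 fold of -0.82. LincRNAs as a type had a median of 1.76 (n = 370), and both rows lay below the 0.69 that marks its lower quartile. Both also lie inside the longer RefSeq span of Tbx5, and whether they are part of Tbx5 transcripts was not tested. The level of RP24-150D8.2 was of the order of that of Tbx5, at 17.8 FPKM in the soluble extract.

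**Figure D4:**
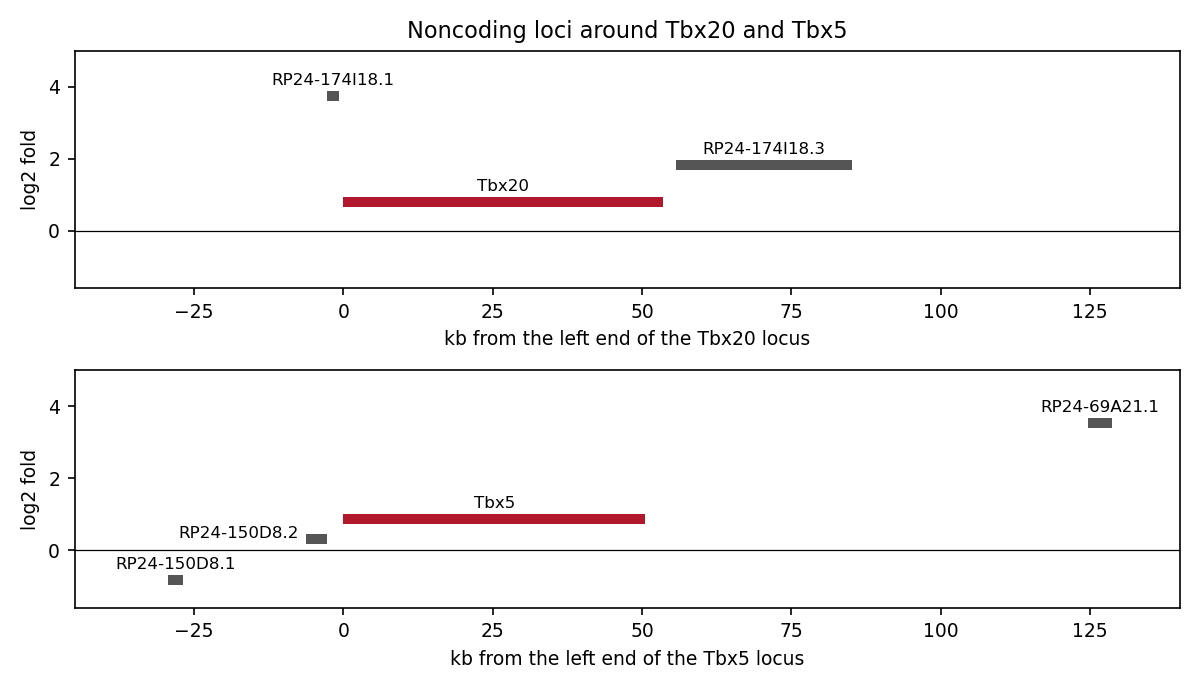
Noncoding rows within 100 kb of Tbx20 (top) and Tbx5 (bottom), drawn to scale as bars along the distance in kb from the left end of each locus, at the height of their log2 ratio of scaled pellet to soluble signal. RP24-174I18.1 stands at 3.73 beside Tbx20 at 0.80, and RP24-150D8.2 and RP24-150D8.1 stand at 0.31 and -0.82 beside Tbx5 at 0.86; RP24-174I18.3 and RP24-69A21.1 are under 0.5 FPKM.

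Near Tbx2 the strong signal belonged to its neighbour. Bcas3, whose locus ends 327 bp before that of Tbx2, had 9.28 FPKM in the pellet and 11.8 FPKM in the soluble extract, a log2 fold of 1.41, beside 1.66 for Tbx2. Gm23473, typed as rRNA by the table and placed in the Bcas3 locus, had 5.85 FPKM in the pellet and 1.68 FPKM in the soluble extract, a log2 fold of 3.56. Whether RNA from Bcas3 has a part in the Tbx2 value was not tested. Dpy19l2, 24.5 kb from Tbx20, had 0.807 FPKM in the pellet and 0.340 FPKM in the soluble extract, a log2 fold of 3.001. The other 13 rows had at most 0.416 FPKM in the pellet and 0.399 FPKM in the soluble extract. Besides RP24-174I18.3 they were RP24-69A21.1 near Tbx5, both Tbx3os1 entries, Gm16063 and Gm16064 near Tbx3, RP23-353O7.5 near Tbx18, and Bcas3os1, Bcas3os2, 2610027K06Rik, Gm23765, Gm11444 and Tbx4 near Tbx2.

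The table types 849 noncoding loci as Tbx5-dependent, and 0 of them lay within 100 kb of any of the 5 genes. How often other genes have such a locus within 100 kb was not counted, so this 0 does not set the 5 genes apart. The nearest ones were 1058 kb from Tbx2, 1654 kb from Tbx18, 1663 kb from Tbx20, 2625 kb from Tbx5 and 2825 kb from Tbx3. XLOC_056179, the one nearest to Tbx20, had 3.19 FPKM in the pellet and 0.471 FPKM in the soluble extract, a log2 fold of 4.51.

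Of 11 other T-box genes in the table, 2 reached a mean of 0.5 FPKM, and they lay apart from each other. Mga, a large protein with a T-box and a second DNA-binding domain that pairs with Max, had 29.2 FPKM in the pellet and 25.9 FPKM in the soluble extract. Its log2 fold was 1.93, or 0.17 on the FPKM scale, above every member counted. Eomes, a regulator of early mesoderm and of lymphocytes, had 0.421 FPKM in the pellet and 1.70 FPKM in the soluble extract, a log2 fold of -0.26. In total 1 of these 2 genes was at least 2-fold higher and 0 lower, beside 24.0% and 10.6% of protein-coding genes. Without the factor 0 were higher and 1 was lower, with Eomes at -2.01, beside 2.25% and 68.2%. The remaining 9 (Tbx4, Tbx6, Tbx10, Tbx15, Tbx19, Tbx21, Tbx22, Tbr1 and T) ranged from 0.00573 to 0.312 FPKM in the pellet and from 0.00402 to 0.306 FPKM in the soluble extract. All 9 had log2 folds above 0, up to 4.92 for Tbr1. At such levels spike-ins of 0.05 to 0.5 FPKM scattered with an SD of 0.37 (n = 16) and lower ones with 0.85 (n = 19). Those lower spike-ins also leaned to the pellet, with a median log2 residual of 0.40 and values from -0.78 to 1.70. The median at 0.05 to 0.5 FPKM was -0.04. Below 0.05 FPKM, a log2 fold above 0 therefore says little about a gene. By the mean of both fractions this holds for Tbx4, Tbx10, Tbx19, Tbx21 and Tbx22. Tbx6, Tbx15, Tbr1 and T lay at 0.05 to 0.5 FPKM, and the value of Tbr1 rests on 0.238 FPKM in the pellet and 0.0265 FPKM in the soluble extract. The share of all rows at such levels with a log2 fold above 0 was not counted.

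The RNAs of genes whose proteins are known to work with cardiac T-box factors were mostly within 2-fold between the fractions. Of 18 counted partners and corepressors, 1 passed 2-fold towards the pellet and 0 towards the soluble extract, beside 24.0% and 10.6% of protein-coding genes. Their median log2 fold was 0.51, or -1.25 without the factor. Tle1, a Groucho corepressor, was the highest at 1.11, with 3.07 FPKM in the pellet and 4.80 FPKM in the soluble extract. Hand2, a basic helix-loop-helix factor, was the lowest at -0.69, with 23.4 FPKM in the pellet and 127.3 FPKM in the soluble extract. Without the factor, 0 passed 2-fold towards the pellet and 14 towards the soluble extract, beside 2.25% and 68.2% of protein-coding genes.

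A list of genes that T-box factors are known to regulate, mostly of the working myocardium, had a median of -0.09, below that of the T-box genes. The list also holds Hcn4 (0.57) and Cacna1g (0.96), which are set among sinoatrial and conduction markers below. Of 13 counted, 2 passed 2-fold towards the pellet and 3 towards the soluble extract, beside 24.0% and 10.6% of protein-coding genes. Without the factor these counts were 0 and 10, beside 2.25% and 68.2%, and the median was -1.85. Both higher ones encode large structural proteins: Myh6, the alpha myosin heavy chain, had a log2 fold of 1.24, and Dsp, the desmosome protein desmoplakin, 1.18. The lower ones were Sln, the calcium pump regulator sarcolipin (-1.55), Gja1, the gap junction protein connexin 43 (-1.33), and Nppa (-1.21). Nppa had 0.208 FPKM in the pellet and 1.63 FPKM in the soluble extract, so its level was below that of Tbx5 in both fractions. Nppa, Myh6 and Dsp each share their coordinates with another row, as 43.5% of all rows counted do. Of the 14 genes of this list with a promoter window, 3 held the T-box core (Nppa, Dsp and Hcn4), beside 13.7% of all windows, so little can be read from the count.

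Genes of Bmp and Notch signalling, which act upstream of T-box genes such as Tbx2 in heart development, were mostly within 2-fold as well. Of 19 counted, 3 passed 2-fold towards the pellet and 0 towards the soluble extract, beside 24.0% and 10.6% of protein-coding genes. The median was 0.46. Without the factor the counts were 0 and 15, beside 2.25% and 68.2%, and the median was -1.29. The receptors Notch1 and Acvr2b both had 1.56 and the inhibitory Smad7 had 1.03. The ligand Bmp4 was the lowest at -0.64, with 1.81 FPKM in the pellet and 9.52 FPKM in the soluble extract. Hey1, a Notch target that represses Tbx2, had 1.17 FPKM in the pellet and 4.77 FPKM in the soluble extract.

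Beside other cardiac factors, the T-box median of 0.83 lay between those of the Gata group and of the Mef2 group. The 5 counted genes of the Gata group, and Mef2c of the Mef2 group, are also among the partners and corepressors above. For Gata factors, Nkx2-5 and Hand2, 0 of 5 passed 2-fold in either direction, beside 24.0% higher and 10.6% lower among protein-coding genes. Their median was 0.51, from 0.62 for Gata4 to -0.69 for Hand2. Without the factor, 0 passed towards the pellet and 5 towards the soluble extract, beside 2.25% and 68.2%. For Mef2 factors, Srf and myocardin, 4 of 7 passed 2-fold towards the pellet and 0 towards the soluble extract, around a median of 1.14, beside 24.0% and 10.6% of protein-coding genes. Without the factor these counts were 0 and 2, beside 2.25% and 68.2%. In the Mef2 group, Mkl1 was at 1.55, Myocd and Mef2d were both at 1.18, and Srf was the lowest at 0.12. Mkl1, Mef2d and Srf share their coordinates with other rows, as do Hand2 here and Notch1, Bmp4 and Eomes above. None of these differences between groups could be tested with pooled values. In level, Tbx20 (51.3 FPKM in the pellet, 99.4 in the soluble extract) lay above Gata4 (35.3 and 77.5 FPKM).

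**Figure D5:**
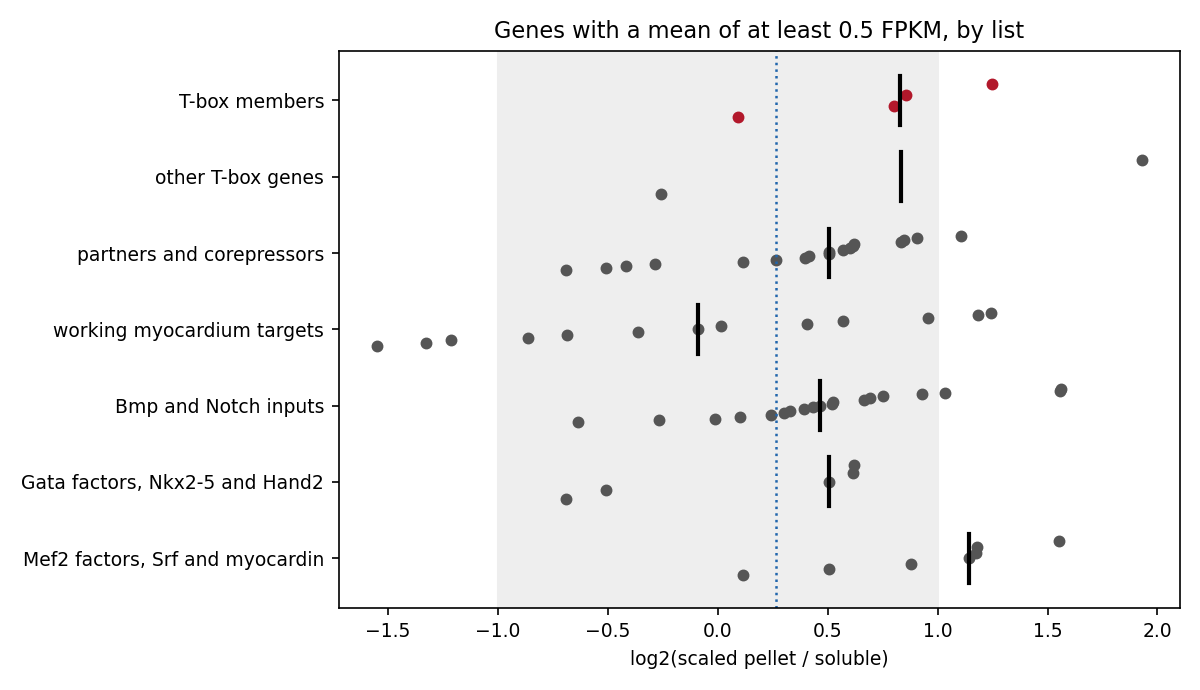
The log2 ratio of scaled pellet to soluble signal for each gene with a mean of at least 0.5 FPKM (points), by list, with the list median (black bar), the span within 2-fold (grey) and the median of protein-coding genes (blue dotted line at 0.26). The 4 T-box genes (red) lie between 0.09 and 1.25 with a median of 0.83, and without the factor every point would lie 1.75 lower.

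The protein-coding genes nearest to each T-box gene in both levels were found by the Euclidean distance in log2 pellet and log2 soluble FPKM, over 2 pooled values. Tbx5 lay closest to Ubr2, Ccdc167 and Grk5, at distances of 0.01 to 0.03. Tbx20 lay closest to Cog4, Tulp4 and Ddr2, at 0.08 to 0.13. Tbx3 was nearest to Ptplad2, Eif4e3 and Foxj2 (0.02 to 0.03), and Tbx18 to 0610030E20Rik, Taf8 and Dcp1a (0.03 to 0.05).

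The labelled cell type was compared with marker genes. All 9 markers of atrial or general cardiomyocytes reached a mean of both fractions of 0.5 FPKM, with sums of 548.9 FPKM in the pellet and 2793 FPKM in the soluble extract, and the atrial light chain gene Myl7 had 131.3 and 1119 FPKM. Of 4 ventricular markers 0 did, although Myl2, with 0.450 FPKM in the pellet and 0.543 FPKM in the soluble extract, lay just under that mean. Among sinoatrial and conduction markers, set beside Tbx18 and Tbx3, Cacna1g had 3.22 FPKM in the pellet and 5.61 FPKM in the soluble extract. Hcn4 had 1.098 FPKM in the pellet and 2.497 FPKM in the soluble extract, and Shox2 had 1.0004 and 3.04 FPKM, while the node regulator Isl1 had 0.000274 FPKM in the pellet and 0.0135 FPKM in the soluble extract. Of 7 epicardial markers 1 did, Wt1, with 0.903 FPKM in the pellet and 1.80 FPKM in the soluble extract, and the sums were 1.18 and 3.27 FPKM. For fibroblasts it was 3 of 6 (sums 88.4 and 347.0 FPKM, nearly all from Col3a1), for endothelium 1 of 5 (1.86 and 5.90 FPKM) and for smooth muscle 5 of 5 (311.7 and 1955 FPKM, largely Acta2). The part of such cells in the T-box values was not tested.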

How the data were processed

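RNA of 2 nuclear fractions of HL-1 cells was measured in 6 libraries, 3 per fraction. Per the labels' protocols, libraries were directional and made after rRNA depletion. The submitters' processing notes name the build mm10 and the tools Cuffdiff, Cufflinks, HISAT2, SAMtools and bedtools, without versions or settings. The authors deposited 1 FPKM value per fraction and row, a pellet signal multiplied by a factor, a total signal, the ratio of scaled pellet to soluble, and the log10 of total and ratio, per the file headers.

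Of 30687 lines, 1945 were repeats of an identifier with the same values and were left out. The factor was recomputed as the slope of a least-squares line without intercept, soluble against pellet FPKM, over 82 spike-ins. A fold reads as RNA per fraction only if spike-in amounts were equal. Rows with a mean of at least 0.5 FPKM were counted, with no pseudocount, and a fold of at least 2 was called. Starts in the file count from 0, and 1 was added. With pooled columns, no limma fit, replicate left out or replicate block could be run, and no interval is given because FPKM keeps no depth.

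The members and lists were chosen with earlier results of these data known. Named genes were the members, other T-box genes, the highest and lowest gene of each list with up to 2 more each way past 2-fold, the 3 nearest genes in level, and rows within 100 kb; Hey1, Hcn4, XLOC_056179 and the markers were added after their values were seen. Some listed genes were not analysed here. The counting was tested on simulated data. Python 3.11.15, pandas 2.3.3, numpy 2.4.6, scipy 1.17.1 and matplotlib 3.10.9 were used.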

Additional observations from a re-analysis of the deposited data

How the results depend on the processing

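No paired analysis was possible because each fraction is a single pooled value, and for the same reason no replicate could be left out. Using FPKM as deposited with no spike-in factor turned every T-box fold to the soluble side: the log2 fold was -0.90 for Tbx5, -0.95 for Tbx20, -1.66 for Tbx3, -0.10 for Tbx2 and -0.51 for Tbx18, the median -0.93, and 0 genes were at least 2-fold higher and 1 lower. The alternative's own construction, a constant of 1.75, is the cause. The count of 1 gene higher in the pellet became 3 at a fold of at least 1.5, 0 at a fold of at least 3, and 2 with no filter on low values, which adds Tbx2. A pseudocount of 1 brought Tbx18 to 1.11 and Tbx2 to 0.61, and one of 0.1 brought Tbx2 to 1.403. With the median spike-in ratio of 3.50 as factor, the 5 folds kept their sign and the median was 0.88. Of 96 counts for the other lists under these settings, 69 stayed within 1.5 times and 27 did not, 11 of those on the FPKM scale. Rows counted as higher ranged from 1344 on the FPKM scale to 14261 with no filter, and rows counted as lower from 453 at 3-fold to 8514 on the FPKM scale, against 4434 and 1467.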
